A study of Homo sapiens with 16 samples.

Results

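The enzymes described here carry squalene synthesis through to cholesterol: FDFT1, SQLE, LSS, CYP51A1, MSMO1, NSDHL, HSD17B7, EBP and DHCR7. They were taken by gene name, with earlier results of these data known, and make up 9 of the 39576 gene names in the deposited tables. Values of rows with the same name were added, which concerned LSS alone, whose second row on an alternate contig was listed at 0 in every library. All 9 had TPM (transcript abundance scaled for gene length and to a fixed total per library) of at least 1 in at least 2 libraries and so entered the tests.

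The cells were A549, a human lung adenocarcinoma line, in which CD63, a tetraspanin enriched on exosomes, was overexpressed as the luciferase fusion CD63-Nluc, in the DMSO controls as well. There were 8 groups, namely DMSO and the compounds 5G6, 6D7 and 7F8, each at 4 h and at 48 h, and the labels print 4 µM for each treatment and call the 3 compounds inhibitors without naming a target or structure. Polyadenylated RNA was sequenced from 2 biological replicates a group, 16 libraries in all. The labels do not say whether replicates came from separate cultures, so p-values measure the spread between these libraries, which may be technical. By its title, the series asks how exosome release relates to AMPK, an energy-sensing kinase, and to SREBPs, the membrane-bound transcription factors of lipid synthesis. The labels name no clone, so it is not known how many clones the engineered line comprised.

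Cholesterol synthesis first builds farnesyl diphosphate from acetyl-CoA by the mevalonate pathway, then joins farnesyl units into squalene, closes squalene into the sterol ring system and trims and rearranges that ring system to cholesterol. When sterols in the endoplasmic reticulum run low, the escort protein SCAP carries SREBP-2 to the Golgi, where it is cut, and its released part switches on the genes of the whole route together. When sterols are plentiful, INSIG proteins hold SCAP and SREBP-2 back.

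Libraries held 6.10 to 8.86 aligned gigabases and 13013 to 14568 genes with TPM of at least 1. Epithelial keratins marked all of them, with KRT8 at 1147 to 3130 TPM and KRT18 at 487 to 1921 TPM. The other epithelial markers were lower, KRT19 at 11.3 to 329 TPM, CDH1 at 9.13 to 36.7 and EPCAM at 0.254 to 8.33. AKR1B10 and ALDH1A1, both abundant in A549, reached at least 887 TPM in each, and AKR1C1 lay at 171 to 576 TPM. Of 7 markers of blood, endothelial and fibroblast cells, COL1A1 lay at 2.27 to 14.4 TPM, DCN was listed at 0 throughout, and the other 5 stayed at or below 0.399 TPM. At 48 h the 5 epithelial markers summed to 3497 and 3626 TPM in DMSO and to 1660 and 1990 with 7F8, where 2 of the 5 and 1 of the 3 A549 markers were called lower. None of the 8 was called lower with 5G6 or 6D7. Of the 5 epithelial markers 1 was called higher with 5G6 and 1 with 6D7, also after median-of-ratios scaling. The highest log2 fold change of the 5 was 2.58 with 5G6 and 2.85 with 6D7. After median-of-ratios scaling 1 epithelial and 1 A549 marker were called lower with 7F8, and ALDH1A1 with 6D7. The tables hold no counts, so the number of reads behind a value is unknown.

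One group stood apart for these enzymes. The 2 libraries of 7F8 at 48 h disagreed in all 9 enzymes, by 1.45 (LSS) to 2.11 (SQLE) on the log2 scale after median-of-ratios scaling, with replicate 1 the higher in every case. A difference of at least 1 in this direction was seen in 4.23% of all tested genes in that group, and in the other 7 groups only DHCR7 with 6D7 at 4 h reached it (1.22). The direction was not particular to 7F8. Replicate 1 was also the higher in all 9 enzymes with 5G6 at both times and with 6D7 at 4 h, by 0.095 to 1.22. Because of the size of the differences, comparisons of 7F8 at 48 h are given without each of its 2 libraries as well. Both also enter the shared estimate of the spread, so counts against DMSO are given without both. They were singled out by the values of these same enzymes. Leaving them out removes the largest replicate differences of the 9, so lower p-values follow in part from that choice.

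**Figure D1:**
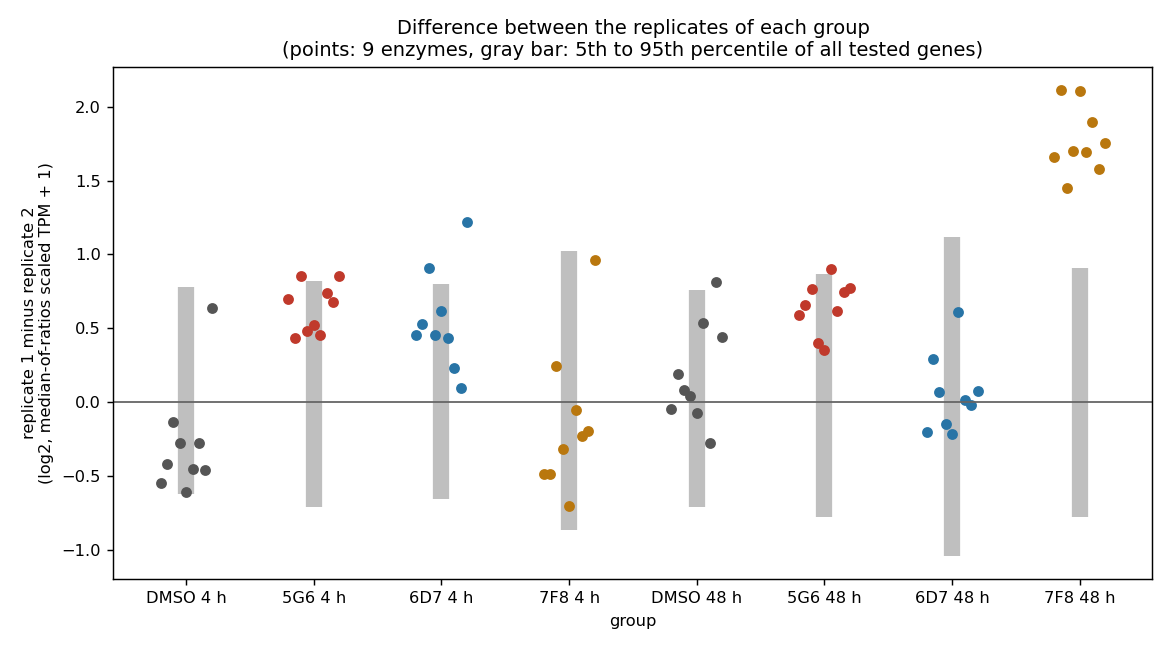
Replicate 1 minus replicate 2 of each group, as log2 of median-of-ratios scaled TPM + 1, on the vertical axis for the 8 groups on the horizontal axis. Points are the 9 enzymes and gray bars run from the 5th to the 95th percentile of all 15285 tested genes. All 9 points of 7F8 at 48 h lie between 1.45 and 2.11, above the bar that ends at 0.91.

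Because the 9 genes moved together across the libraries, the sequence before their starts is shown for 3 of them: MSMO1, which had the largest fold changes with 5G6 and with 6D7 at 48 h, EBP, which had the smallest with both at 4 h, and NSDHL, which had the smallest with 5G6 and with 6D7 at 48 h. RefSeq windows (GRCh38.p14) were at hand for 7 of the 9 genes, 8 windows in all since DHCR7 has 2 starts. Each printed run is the 250 bases before the start on the gene's own strand, 5′ to 3′, and capitals mark CCAAT or its reverse complement ATTGG, the box bound by the factor NF-Y, a common partner of SREBPs. The MSMO1 run lies at chr4:165327419-165327668 on the plus strand, the EBP run at chrX:48521558-48521807 on the plus strand and the NSDHL run at chrX:152830813-152831062 on the plus strand.
MSMO1: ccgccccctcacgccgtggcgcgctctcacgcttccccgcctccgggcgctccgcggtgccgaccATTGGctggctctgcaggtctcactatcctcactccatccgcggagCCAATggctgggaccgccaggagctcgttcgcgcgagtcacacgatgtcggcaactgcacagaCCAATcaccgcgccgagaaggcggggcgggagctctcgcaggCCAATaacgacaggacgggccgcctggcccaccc
EBP: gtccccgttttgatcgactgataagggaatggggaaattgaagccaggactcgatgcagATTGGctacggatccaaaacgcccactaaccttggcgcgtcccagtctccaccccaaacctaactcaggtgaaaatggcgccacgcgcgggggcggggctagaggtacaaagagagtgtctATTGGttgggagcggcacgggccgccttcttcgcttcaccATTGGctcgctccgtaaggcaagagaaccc
NSDHL: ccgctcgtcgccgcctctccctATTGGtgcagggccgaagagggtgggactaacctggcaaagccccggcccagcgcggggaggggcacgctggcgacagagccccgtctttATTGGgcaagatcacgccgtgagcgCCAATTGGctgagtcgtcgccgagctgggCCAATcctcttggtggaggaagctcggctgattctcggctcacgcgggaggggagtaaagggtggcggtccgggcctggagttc

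The MSMO1 run held CCAAT or its complement 4 times, the EBP run 3 times and the NSDHL run 5 times, of which 2 overlapped each other on opposite strands. Over the full windows of 250 bases before to 50 after a start, read on both strands, CCAAT was present for DHCR7, EBP, HSD17B7, LSS, MSMO1 and NSDHL, 6 of the 7 genes with a window, and in 34.6% of all 35116 windows. GGGCGG, the core of an Sp1 box, was found for 6 of the 7, NSDHL being the exception, and in 45.0% of all windows. The palindrome CACGTG was found for LSS alone, and in 7.26% of all windows. TCACNCCAC, a form of the sterol regulatory element, was found in none of the 8 windows and in 1.13% of all, and TCACCCCAC, which is contained in it, in none and in 0.43%. These are matches of letters in a window and no measure of binding.

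In DMSO the 4 libraries, 2 of each hour, gave FDFT1 and EBP the highest levels by TPM (99.0 ± 15.8 and 97.9 ± 19.8, SD, n = 4), followed by DHCR7 (56.9 ± 14.6), SQLE (49.1 ± 4.89), NSDHL (41.7 ± 7.00), CYP51A1 (41.4 ± 5.71), MSMO1 (36.8 ± 6.40), LSS (18.8 ± 3.21) and HSD17B7 (12.1 ± 2.01). FDFT1 and EBP overlapped, as did the 5 genes from DHCR7 to MSMO1 in that order, each with the next. LSS and HSD17B7 did not overlap each other or the rest. The order depends on the scale, since by coverage per base EBP ranked first and NSDHL last of the 9, so the comparisons that follow are within a gene. Between DMSO at 48 h and at 4 h no enzyme was called by limma, where 0% of tested genes were called higher, and none reached an unadjusted p under 0.05 for a rise, against 1.16% of tested genes.

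Summed over the 9 enzymes, TPM at 4 h was 400.5 and 479 in DMSO, 1555 and 1114 with 5G6, 901 and 628 with 6D7 and 399 and 491 with 7F8. At 48 h the sums were 476 and 458 in DMSO, 2677 and 2118 with 5G6, 2062 and 2289 with 6D7 and 1554 and 503 with 7F8. The sums with 5G6 and 6D7 lay above DMSO at both times, those with 7F8 overlapped DMSO at 4 h, and at 48 h only the first 7F8 library stood far above it. In bulk RNA, a change in every cell and a change in the number of expressing cells cannot be told apart.

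FDFT1, squalene synthase, joins farnesyl diphosphate units and is the first step committed to sterols. At 4 h its TPM was 78.8 and 109.5 in DMSO, 313 and 214 with 5G6, 188 and 138 with 6D7 and 84.6 and 129 with 7F8 (replicates 1 and 2 in each pair). At 48 h it was 94.1 and 114 in DMSO, 538 and 437 with 5G6, 365 and 466 with 6D7 and 339.9 and 119.6 with 7F8. With 5G6 and 6D7 both libraries lay above both DMSO libraries at both times, while 7F8 overlapped DMSO at 4 h and split into a high and a near-control library at 48 h. At 48 h FDFT1 rose with 5G6 by a log2 fold change of 2.22 (SE 0.41, adjusted p = 0.0183) and with 6D7 by 1.99 (SE 0.41, adjusted p = 0.0127), in limma on log2(TPM + 1) with Benjamini-Hochberg adjustment over 15285 genes, the test behind every adjusted p given here. After median-of-ratios scaling FDFT1 passed with 5G6 (adjusted p = 0.0203 by limma) and not with 6D7 (adjusted p = 0.0539 by limma).

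SQLE, squalene epoxidase, adds the oxygen that ring closure needs and is a rate-limiting step. Its TPM at 4 h was 43.6 and 55.5 in DMSO, 177 and 146 with 5G6, 110.5 and 77.3 with 6D7 and 43 and 65.5 with 7F8. At 48 h the pairs were 48.1 and 49 in DMSO, 269 and 209 with 5G6, 269 and 244 with 6D7 and 224 and 57 with 7F8. All 4 libraries of 5G6 and of 6D7 at 48 h stood more than 4 times as high as the DMSO libraries, as did replicate 1 of 7F8 but not its replicate 2. SQLE rose at 48 h by 2.26 (SE 0.47, adjusted p = 0.0261) with 5G6 and by 2.38 (SE 0.47, adjusted p = 0.0101) with 6D7. The partners that degrade the SQLE protein, the ubiquitin ligase MARCH6 and the conjugating enzyme UBE2J2, were called in no comparison with DMSO at 48 h, with log2 values of -0.38 and -0.46 for 5G6.

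LSS, lanosterol synthase, closes the ring system. At 4 h its TPM was 15.7 and 16.5 in DMSO, 89.9 and 55 with 5G6, 49.8 and 26.4 with 6D7 and 21.9 and 19.8 with 7F8. At 48 h it was 20.5 and 22.4 in DMSO, 175 and 126 with 5G6, 129.7 and 137 with 6D7 and 109 and 44.1 with 7F8. LSS was the one enzyme whose libraries all lay above DMSO with each compound at each time, 7F8 included, although 7F8 at 4 h exceeded DMSO by little. It rose at 48 h with 5G6 (log2 fold change 2.74, SE 0.39, adjusted p = 0.00829), with 6D7 (log2 fold change 2.58, SE 0.39, adjusted p = 0.00358) and with 7F8 (log2 fold change 1.65, SE 0.39, adjusted p = 0.0257). The call with 7F8 was lost without DMSO replicate 1, DMSO replicate 2 or 7F8 replicate 1. Even the low library of 7F8 at 48 h held 44.1 TPM of LSS against at most 22.4 in DMSO.

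CYP51A1, MSMO1, NSDHL and HSD17B7 strip methyl groups from lanosterol: CYP51A1 removes the first, MSMO1 oxidises the remaining pair, NSDHL removes these as carbon dioxide and HSD17B7 reduces the ketone that remains. For CYP51A1, TPM at 4 h was 34.7 and 40 in DMSO, 154 and 123 with 5G6, 88.8 and 65.3 with 6D7 and 31.3 and 42.4 with 7F8. At 48 h CYP51A1 stood at 42.7 and 48.4 in DMSO, 206 and 191 with 5G6, 179 and 219.9 with 6D7 and 136 and 46 with 7F8, so 5G6 and 6D7 were high in all libraries and the second 7F8 library lay inside the DMSO range. CYP51A1 rose at 48 h by 2.10 (SE 0.38, adjusted p = 0.017) with 5G6 and 2.10 (SE 0.38, adjusted p = 0.00742) with 6D7.

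MSMO1 had the largest fold changes of the 9 with 5G6 at both times and with 6D7 at both times. Its TPM at 4 h was 29.3 and 42.7 in DMSO, 195 and 152 with 5G6, 103 and 67.3 with 6D7 and 23.3 and 41.8 with 7F8. At 48 h it was 33.8 and 41.6 in DMSO, 361 and 346 with 5G6, 289.5 and 373 with 6D7 and 220.3 and 56.6 with 7F8. The 5G6 and 6D7 libraries of 48 h were all above every other MSMO1 value of the series. MSMO1 rose 9.21-fold with 5G6, or 3.20 (SE 0.50, adjusted p = 0.0098) in log2, and 8.56-fold with 6D7, or 3.10 (SE 0.50, adjusted p = 0.00451). After median-of-ratios scaling the log2 values were 3.29 with 5G6 and 2.76 with 6D7, and both passed.

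NSDHL at 4 h had TPM of 38.9 and 50.7 in DMSO, 109 and 88.6 with 5G6, 73.7 and 54.8 with 6D7 and 35.8 and 40.3 with 7F8. At 48 h NSDHL had 42.9 and 34.2 in DMSO, 143 and 93.2 with 5G6, 141 and 102 with 6D7 and 97.7 and 33.1 with 7F8. Both libraries were above DMSO with 5G6 and 6D7 at each time, yet at 48 h NSDHL passed the test with 6D7 (log2 fold change 1.62, SE 0.41, adjusted p = 0.025) and not with 5G6 (log2 fold change 1.57, SE 0.41, adjusted p = 0.059), the one of the 9 that missed with 5G6. Without both 7F8 libraries of 48 h, a removal chosen from the values of these enzymes, NSDHL passed with 5G6 as well (adjusted p = 0.0134 by limma). After median-of-ratios scaling of all libraries it passed with neither compound (adjusted p = 0.139 with 6D7 and 0.0833 with 5G6 by limma). With TRNC and TRNY left out of TPM it did not pass with 6D7 (adjusted p = 0.115 by limma). The difference between the compounds for NSDHL at 48 h was -0.05 (SE 0.41) in log2, with a 95% interval of -0.94 to 0.83. HSD17B7, the lowest of the 9 by TPM, read 10.8 and 12.6 in DMSO, 42.6 and 28.1 with 5G6, 20 and 17.1 with 6D7 and 8.1 and 10.4 with 7F8 at 4 h. At 48 h HSD17B7 read 10.2 and 14.7 in DMSO, 48.4 and 38.4 with 5G6, 42.9 and 47.1 with 6D7 and 39.2 and 11.1 with 7F8, with 5G6 and 6D7 clear of DMSO. It rose by 1.74 (SE 0.43, adjusted p = 0.0499) with 5G6 and 1.79 (SE 0.43, adjusted p = 0.0221) with 6D7. After median-of-ratios scaling HSD17B7 passed with neither compound (adjusted p = 0.0562 with 5G6 and 0.0919 with 6D7 by limma). Its near-identical pseudogene HSD17B7P2 had log2 fold changes of 1.38 (SE 0.37, adjusted p = 0.0681) with 5G6 and 1.25 (SE 0.37, adjusted p = 0.0473) with 6D7, and after median-of-ratios scaling it passed with 5G6 and not with 6D7, so how reads were split between the pair is uncertain.

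EBP, the isomerase that moves the ring double bond, and DHCR7, which reduces the last ring double bond, act at the end of the route. EBP at 4 h had TPM of 88.7 and 116 in DMSO, 214 and 149 with 5G6, 129 and 122 with 6D7 and 84 and 104 with 7F8. At 48 h EBP had 113 and 74.4 in DMSO, 477 and 348 with 5G6, 299.5 and 336 with 6D7 and 176 and 65.5 with 7F8. EBP was thus barely above DMSO with 6D7 at 4 h and well above it with 5G6 and 6D7 at 48 h, and the second 7F8 library of 48 h was below both DMSO libraries. It rose at 48 h by 2.14 (SE 0.38, adjusted p = 0.0167) with 5G6 and 1.78 (SE 0.38, adjusted p = 0.0145) with 6D7. After median-of-ratios scaling EBP passed with 5G6 (adjusted p = 0.0241 by limma) and not with 6D7 (adjusted p = 0.085 by limma). EBPL, a related gene without known isomerase activity, did not pass the test with either and had log2 values of -0.95 and -0.71.

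For DHCR7, TPM at 4 h was 60.2 and 36.4 in DMSO, 259 and 159 with 5G6, 138 and 59.5 with 6D7 and 67.2 and 37 with 7F8. At 48 h DHCR7 stood at 70.7 and 60.3 in DMSO, 459.9 and 329.5 with 5G6, 346 and 365 with 6D7 and 213 and 69.8 with 7F8. It was the one enzyme whose 6D7 libraries overlapped DMSO at 4 h, and at 4 h its replicate 1 was the higher in every group, DMSO included. DHCR7 rose at 48 h by 2.56 (SE 0.52, adjusted p = 0.025) with 5G6 and 2.43 (SE 0.52, adjusted p = 0.0139) with 6D7. After median-of-ratios scaling DHCR7 passed with 5G6 (adjusted p = 0.0309 by limma) and not with 6D7 (adjusted p = 0.0553 by limma).

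**Figure D2:**
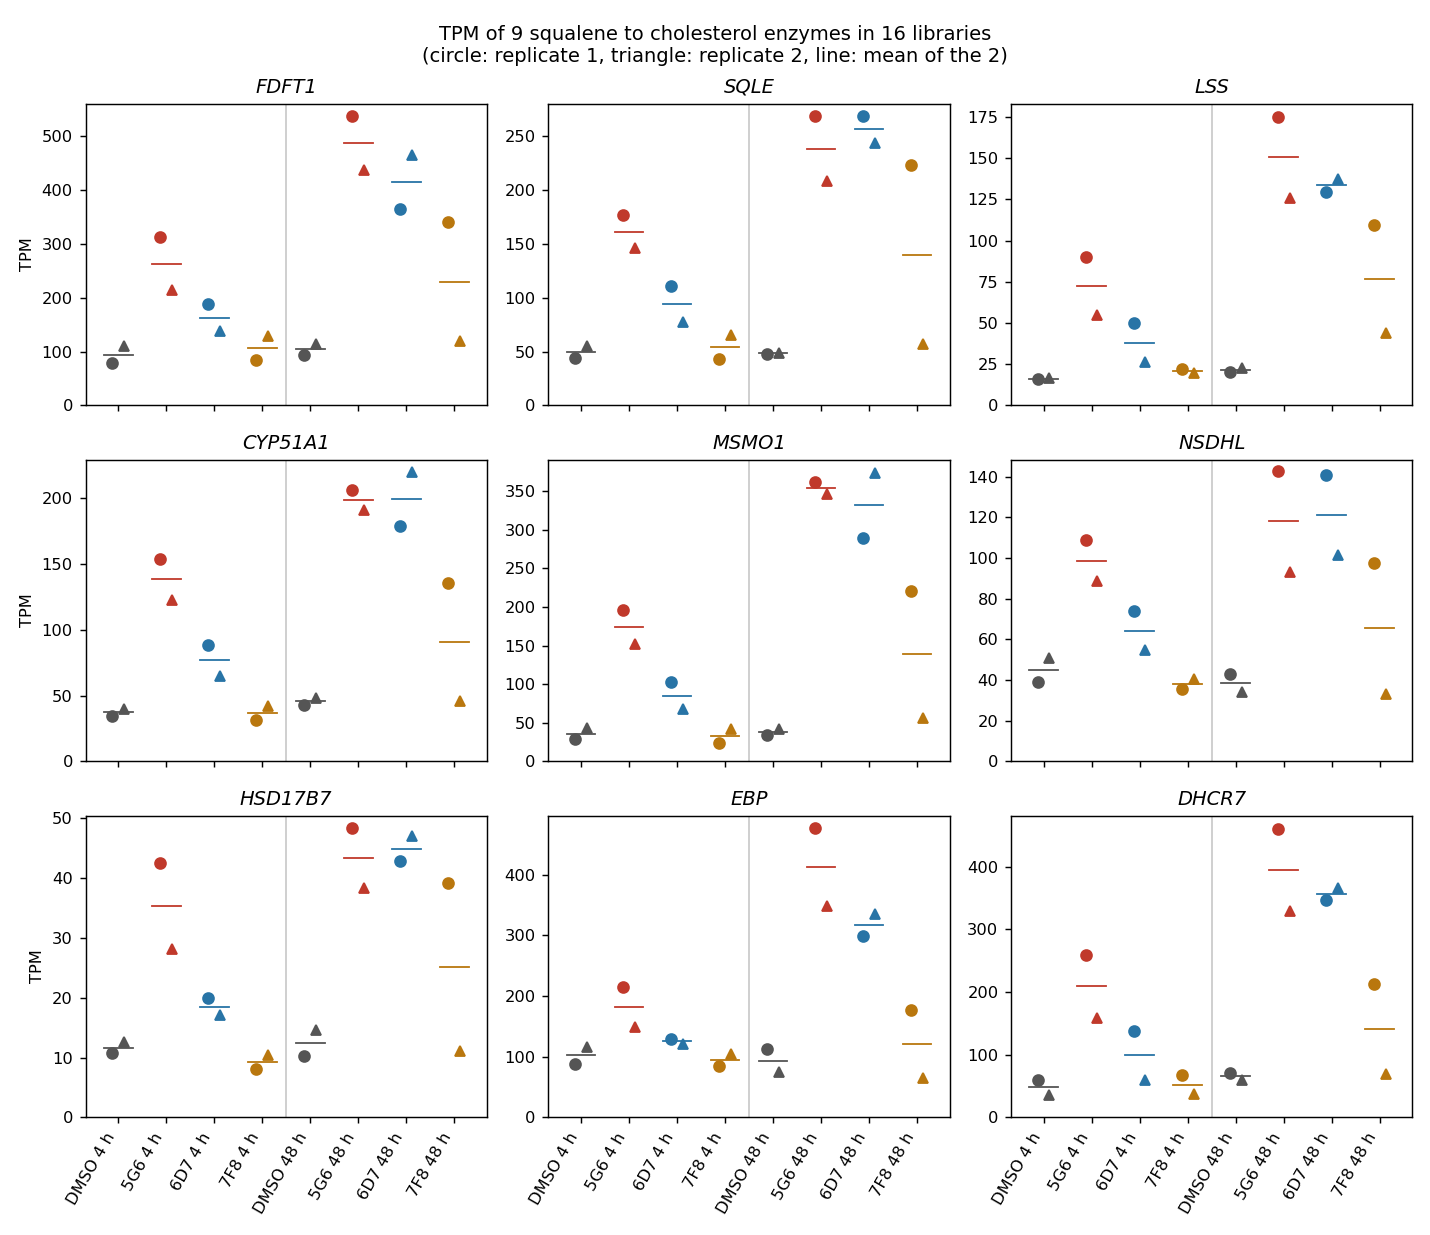
TPM of each of the 9 enzymes (1 panel per gene, linear vertical axis from 0) in the 8 groups on the horizontal axis, with 2 libraries per group as a circle and a triangle and their mean as a line. In each panel the 5G6 and 6D7 libraries of 48 h lie above both DMSO libraries, and the 7F8 pair of 48 h is split.

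Read across the 9 enzymes, 5G6 at 4 h gave a median log2 fold change of 1.69 (0.81 for EBP to 2.25 for MSMO1), against a median of 0.13 over all tested genes. All 9 had both libraries above both DMSO libraries, which held for 26.9% of tested genes. None passed the adjusted test, which called 0.0196% of genes higher, and 8 of 9 had an unadjusted p under 0.05, against 3.68% of genes. The call at 4 h depended on the 7F8 libraries of 48 h, which share in the estimate of the spread: without both, SQLE, LSS, CYP51A1 and MSMO1 passed (adjusted p 0.0335 to 0.0481 by limma), 4 of 9, where 0.0724% of genes were called higher. With median-of-ratios scaling as well, none passed (0% of genes). As these libraries were singled out by the same enzymes, the 4 calls add no support for a rise.

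With 6D7 at 4 h the median log2 fold change of the 9 was 0.90 (0.30 for EBP to 1.21 for MSMO1), against 0.04 over all genes. It was 0.57 without 6D7 replicate 1 and 1.15 without 6D7 replicate 2. Both libraries lay above DMSO in 8 of 9, DHCR7 being the exception, against 16.1% of all genes. No enzyme and 0% of genes were called higher, and LSS, CYP51A1 and MSMO1 had an unadjusted p under 0.05 (3 of 9, against 0.994%). With 7F8 at 4 h the median was -0.03 (-0.31 for HSD17B7 to 0.35 for LSS), against -0.10 over all genes. LSS, 1 of 9, lay above DMSO in both libraries (9.98% of genes). Neither an adjusted (0% of genes) nor an unadjusted p under 0.05 for a rise (1.48%) was found for any. Without both 7F8 libraries of 48 h no enzyme was called at 4 h with 6D7 (0% of genes) or 7F8 (0%) either. The 95% interval for MSMO1 with 7F8 ran from -1.25 to 0.91, which includes 0 and a decrease of more than 1.

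At 48 h 8 of 9 enzymes rose with 5G6, where 1.87% of tested genes were called higher, with a median log2 fold change of 2.22 over the 9 (1.57 for NSDHL to 3.20 for MSMO1) against -0.07 over all genes. Both libraries were above DMSO in 9 of 9, against 19.4% of genes. After median-of-ratios scaling 7 of 9 passed, HSD17B7 being lost as well (2.44% of genes). Without both 7F8 libraries of 48 h, a removal chosen from the values of these enzymes, all 9 did (1.72%). On the libraries of 48 h alone, which leave fewer degrees of freedom, 0 of 9 passed with 5G6 (0.0467% of genes) and 3 of 9 with 6D7 (2.54%). The 5G6 count was 0 without DMSO replicate 1 (0.0197% of genes), 2 without DMSO replicate 2 (0.664%), 0 without 5G6 replicate 1 (0.276%) and 1 without 5G6 replicate 2 (0.204%), with the lone library assumed to vary like the other groups. Over these 4 fits the median of the 9 stayed between 2.07 and 2.37.

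With 6D7 at 48 h all 9 enzymes rose, by a median of 2.10 (1.62 for NSDHL to 3.10 for MSMO1), where 10.9% of genes were called higher and the median over all genes was 0.29. Both libraries were above DMSO in 9 of 9 (45.2% of genes). In these 2 libraries the mitochondrial tRNA gene TRNC was listed at 0, and mitochondrial genes took 6.13% and 6.48% of TPM, against 18.9% to 32.5% in the other 14, and since TPM adds up to the same total in each library the other genes take a larger share. With median-of-ratios scaling the median was 1.76 and SQLE, LSS, CYP51A1 and MSMO1 passed, 4 of 9 (3.05% of genes). Without both 7F8 libraries of 48 h the count was 9 (10.1% of genes), or 8 with this scaling too (2.8%). With TRNC and TRNY left out of TPM the median was 1.70 and FDFT1 passed too, 5 of 9 (2.46% of genes). The count was 1 without DMSO replicate 1 (1.07% of genes), 6 without DMSO replicate 2 (6.11%), 4 without 6D7 replicate 1 (2.85%) and 8 without 6D7 replicate 2 (11.9%). The comparisons of an hour share the DMSO libraries.

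With 7F8 at 48 h LSS alone was called, 1 of 9 (2.08% of genes were called higher), and the count was the same after median-of-ratios scaling (3.65% of genes). The median of the 9 was 0.89 (0.23 for EBP to 1.65 for LSS) against -0.21 over all genes, and FDFT1, SQLE, LSS and MSMO1, 4 of 9, lay above DMSO in both libraries, against 15.1% of genes. This median describes neither library. Replicate 1 stood a median of 1.69 above DMSO with 9 of 9 above both DMSO libraries, and replicate 2 a median of 0.09 with 4 of 9. Without replicate 2 the test called 7 of the 9 (1.78% of genes), and without replicate 1 it called none (0.164%). It also called none without DMSO replicate 1 (0.118% of genes) or DMSO replicate 2 (0.861%).

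**Figure D3:**
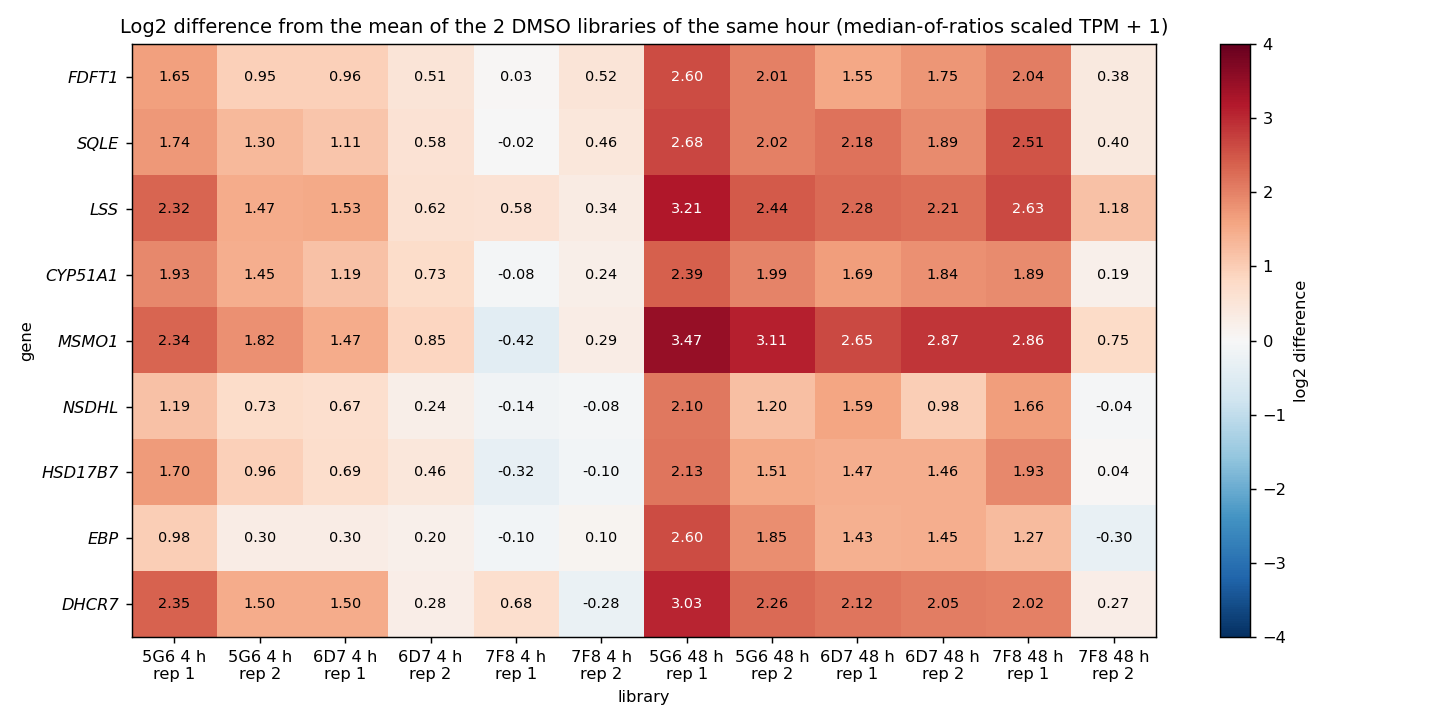
Log2 difference of each compound library from the mean of the 2 DMSO libraries of its hour, on median-of-ratios scaled TPM + 1, for the 9 enzymes (rows) and 12 libraries (columns), with the value in each cell and color from blue (lower) to red (higher). Replicate 1 of 7F8 at 48 h runs from 1.27 to 2.86, and replicate 2 from -0.30 to 1.18. The 5G6 and 6D7 columns of 48 h lie between 0.98 and 3.47.

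2 genes of lysosomal cholesterol exit were high in both 7F8 libraries of 48 h. Both genes were called higher with 5G6 and with 6D7 at 48 h as well. NPC1, which moves cholesterol out of lysosomes, had TPM of 113 and 74.5 with 7F8 and 21.4 and 22 in DMSO, and its lysosomal partner NPC2 had 357 and 288 against 134 and 92.4. Both rose with 7F8, NPC1 by 2.03 (SE 0.31, adjusted p = 0.00551) and NPC2 by 1.52 (SE 0.23, adjusted p = 0.00543), and each 7F8 library was above both DMSO libraries for both genes. AKR1B10, AKR1C1 and ALDH1A1 together held 3515 and 3924 TPM in the 2 libraries, against 9230 and 10730 in DMSO of 48 h. This sum was below DMSO with the other compounds too, at 4365 and 6289 with 5G6 and at 2630 and 8717 with 6D7, whose replicate 1 was the lowest at 48 h. Across tested genes the 2 libraries correlated at 0.964 on the log scale, replicate 1 at 0.969 with replicate 1 of 5G6 and replicate 2 at 0.971 with replicate 2 of 5G6, a description over 15285 genes that share libraries. The part that cell state has in the split of the enzymes was not tested.

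**Figure D4:**
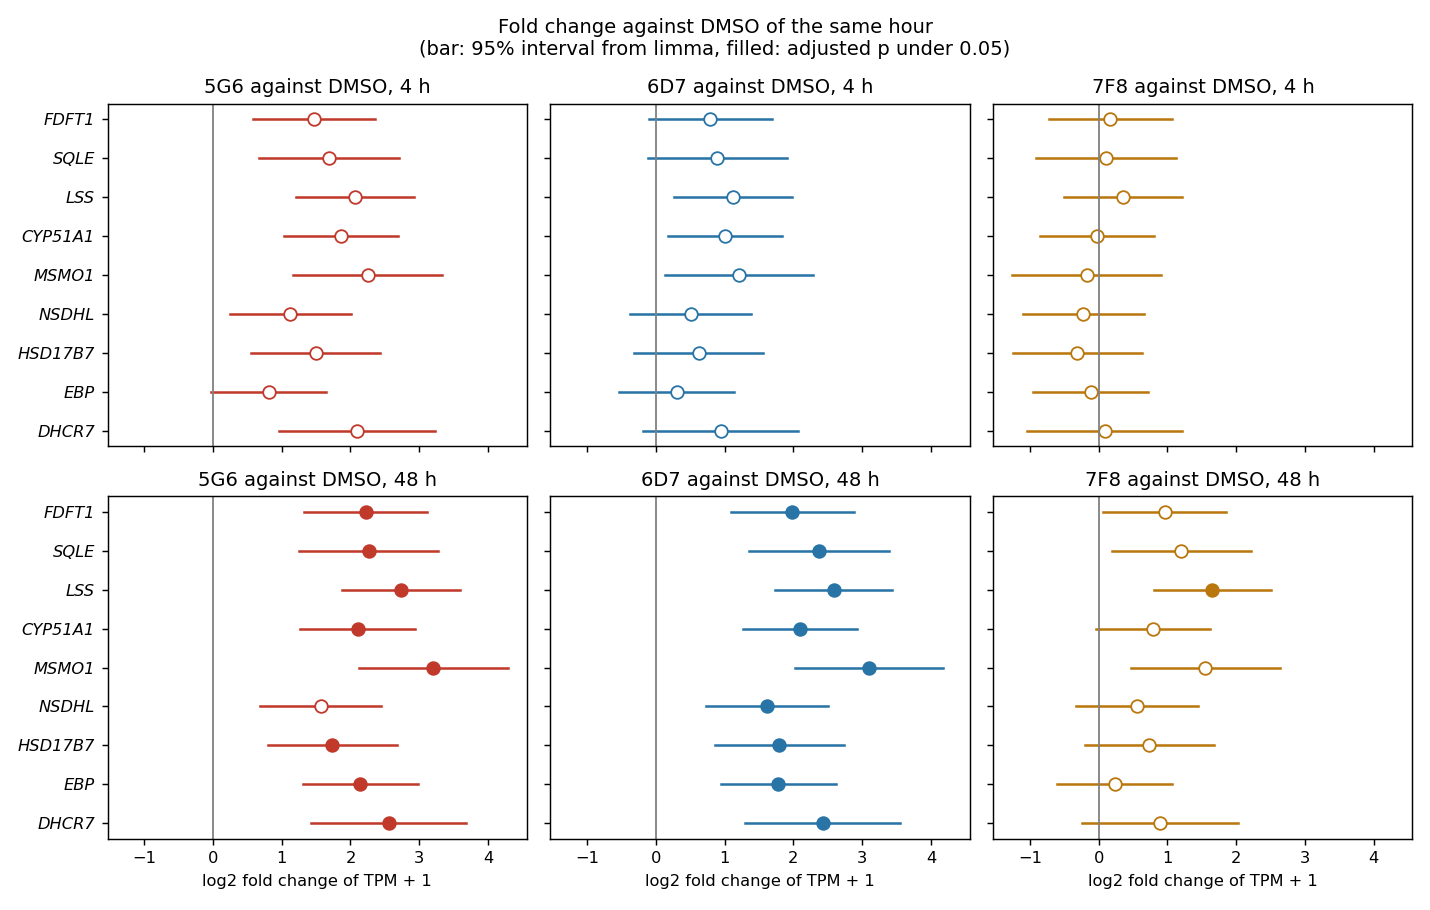
Log2 fold change of TPM + 1 against DMSO of the same hour (horizontal axis) for the 9 enzymes (vertical axis), with 4 h in the upper and 48 h in the lower row and 1 column per compound. Points are limma estimates with 95% intervals and are filled where the adjusted p was under 0.05: none at 4 h, 8 with 5G6, 9 with 6D7 and 1 with 7F8 at 48 h.

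Compared directly at 4 h, 5G6 exceeded 6D7 in both libraries for 9 of 9 enzymes (19.7% of genes), by a median of 0.84, but no enzyme was called (0% of genes called higher) and 3 of 9 had an unadjusted p under 0.05 (0.936%). That median was 0.54 without 6D7 replicate 2 and 0.59 without 5G6 replicate 1. The widest gap was that of DHCR7, at 1.15 (SE 0.52) with a 95% interval of 0.02 to 2.28. 5G6 exceeded 7F8 in both libraries for 9 of 9 (36.4% of genes), by a median of 1.71, and again no enzyme passed the adjusted test (0.0131% of genes did), while all 9 had an unadjusted p under 0.05 (11%). Without both 7F8 libraries of 48 h, 2 of the 9 passed (0.0395% of genes), and none did with median-of-ratios scaling as well (0.00658%). 6D7 exceeded 7F8 in both libraries for 8 of 9, DHCR7 being the exception (27% of genes), by a median of 0.79, with none called (0% of genes) and CYP51A1 and MSMO1 under 0.05 unadjusted (5.12%). Without 6D7 replicate 1 the median was 0.52.

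At 48 h 5G6 and 6D7 gave overlapping levels for 8 of the 9 enzymes, with EBP higher in both 5G6 libraries (1 of 9, against 1.14% of genes). No enzyme was called (0.00654% of genes called higher) and none had an unadjusted p under 0.05 (0.124%). The median difference was 0.11, or 0.53 after median-of-ratios scaling, which rescales the 6D7 libraries. It changed sign without 5G6 replicate 1, to -0.08, was 0.06 without 6D7 replicate 1, 0.17 without 6D7 replicate 2 and 0.25 without 5G6 replicate 2. The 95% interval for MSMO1 was -0.97 to 1.19 and that for EBP -0.48 to 1.20, so that with 2 libraries a group differences of nearly 1 in either direction lie inside the interval for MSMO1.

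5G6 exceeded 7F8 at 48 h by a median of 1.26, with 6 of 9 enzymes above in both libraries (27.8% of genes), 9 of 9 at an unadjusted p under 0.05 (7.4%) and none called (0.314%). Leaving out 7F8 replicate 1 gave 4 calls (0.112% of genes) and a median of 2.04, and leaving out its replicate 2 gave 0 calls (0.0328%) and a median of 0.51. 6D7 exceeded 7F8 by a median of 1.17 with 9 of 9 above in both libraries (60.6% of genes), and CYP51A1 (log2 fold change 1.31, SE 0.38, adjusted p = 0.0383) and EBP (log2 fold change 1.55, SE 0.38, adjusted p = 0.0242) were called higher, 2 of 9 where 16.3% of genes were. After median-of-ratios scaling the median was 0.58 and no enzyme was called (0.334% of genes). Without 7F8 replicate 1 the count was 6 (0.571% of genes) and the median 2.08, and without 7F8 replicate 2 they were 0 (4.16%) and 0.29. The count was 0 without 6D7 replicate 1 (2.5% of genes) and without 6D7 replicate 2 (12.8%).

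The change from 4 h to 48 h was tested as the effect at 48 h minus the effect at 4 h. It was above 0 for all 9 enzymes with each compound. Their median was 0.57 (0.83 after median-of-ratios scaling) for 5G6, 1.46 (1.17) for 6D7 and 0.82 (0.96) for 7F8. Among all tested genes by TPM, the share above 0 was 31.82% for 5G6, 71.93% for 6D7 and 39.85% for 7F8. The all-gene medians were -0.22, 0.25 and -0.11 in that order. By TPM, the 5G6 median of the enzymes was 0.33 without 5G6 replicate 2 of 4 h. Their 7F8 median was 0.047 without 7F8 replicate 1 of 48 h and 1.597 without its replicate 2. No enzyme was called for 5G6 (0% of genes called higher), 6D7 (0.0262%) or 7F8 (0%). An unadjusted p under 0.05 was found for EBP with 5G6 (1 of 9, against 1.83% of genes), for SQLE, LSS, MSMO1 and EBP with 6D7 (4 of 9, against 9.31%) and for LSS and MSMO1 with 7F8 (2 of 9, against 2.89%). With 5G6 the enzymes differed in how much of the 48 h value was already present at 4 h: CYP51A1 stood at 1.86 at 4 h and 2.10 at 48 h, and EBP at 0.81 and 2.14. That contrast between CYP51A1 and EBP was not tested.

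Across the 16 libraries the 36 pairs of enzymes correlated at 0.856 to 0.992, median 0.937 (Pearson, log2 of median-of-ratios scaled TPM + 1). These points share libraries, scaling and treatment groups. Over the 8 group means, the 6 other genes most like the mean of the enzymes, of 10176 with a mean TPM of at least 5, were MVD (0.993), LOC648987 (0.991), SC5D (0.988), IDI1 (0.985), STARD4 (0.982) and RUSC1-AS1 (0.981). RUSC1-AS1 is annotated antisense to a neighbor, and whether counting used strand is not given in the sources used here, so its reads cannot be told apart from those of the gene it overlaps.

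Of 7 mevalonate pathway enzymes (ACAT2, HMGCS1, MVK, PMVK, MVD, IDI1 and FDPS), 6 rose with 5G6 at 48 h and 6 with 6D7, PMVK being the exception in both, and 0 with 7F8. For this list and those below, the shares of tested genes called higher at 48 h were 1.87% with 5G6, 10.9% with 6D7 and 2.08% with 7F8. With 7F8 979 of 15285 genes were called lower. After median-of-ratios scaling 6 of the 7 enzymes passed with 5G6 and 4 with 6D7 (2.44% and 3.05% of genes). The median log2 fold changes of the 7 enzymes were 2.53, 2.33 and 0.51 at 48 h and 1.81, 0.89 and -0.08 at 4 h, when none was called with any compound. HMGCS1, which makes the precursor of mevalonate, had TPM of 43.4 and 34.2 in DMSO, 341 and 267 with 5G6, 323 and 245 with 6D7 and 143 and 26 with 7F8, so it too was high in replicate 1 and low in replicate 2 of 7F8. PMVK had log2 values of -0.26 with 5G6 and 0.30 with 6D7.

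Of 4 late sterol enzymes outside the 9, 2 rose with 5G6 and 2 with 6D7. SC5D, the lathosterol desaturase, rose by 1.66 (SE 0.31, adjusted p = 0.0194) and 1.79 (SE 0.31, adjusted p = 0.0064). LBR, a nuclear envelope protein that shares the sterol reductase step with TM7SF2, had log2 values of -0.46 and -0.31 without passing the test and fell by 0.91 with 7F8 (adjusted p = 0.0322), while TM7SF2 had 1.80 (SE 0.47, adjusted p = 0.0597) with 5G6. Of 6 genes that use farnesyl diphosphate for other products (GGPS1, FNTA, FNTB, DHDDS, NUS1 and COX10), 0 rose with 5G6 and 1, DHDDS, with 6D7 (log2 fold change 1.56, SE 0.41, adjusted p = 0.0294), and FNTB fell by 0.72 with 7F8 (adjusted p = 0.0322). Neither call was kept after median-of-ratios scaling.

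Among 7 SREBP factors and regulators, INSIG1, itself an SREBP target, rose at 48 h with 5G6 (log2 fold change 3.72, SE 0.59, adjusted p = 0.00991) and with 6D7 (log2 fold change 3.81, SE 0.59, adjusted p = 0.00378). Its TPM was 26.6 and 22.7 in DMSO, 366 and 309.7 with 5G6, 434 and 293 with 6D7 and 137 and 39.4 with 7F8. SREBF2, which encodes SREBP-2, rose with 6D7 (log2 fold change 1.12, SE 0.31, adjusted p = 0.0352) and missed with 5G6 (log2 fold change 1.02, SE 0.31, adjusted p = 0.0994), and INSIG2 rose with 6D7 (log2 fold change 1.79, SE 0.52, adjusted p = 0.0433). After median-of-ratios scaling 1 of the 7 passed with 6D7. Of 8 genes of sterol storage, export and the LXR response, NPC1 and NPC2 rose with all 3 compounds and NR1H2 with 6D7 (log2 fold change 0.96, SE 0.17, adjusted p = 0.00627), whereas the LXR target ABCA1 read -0.15 with 5G6 and 0.07 with 6D7, neither of which passed. After median-of-ratios scaling NPC1 and NPC2 passed with all 3 compounds and NR1H2 with none.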

How the data were processed

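Gene abundance tables of polyadenylated RNA were used, 1 per library. STAR 2.6.1a, featureCounts 1.6.3, StringTie 2.0 and the GRCh38 build are named in the submitters' processing notes, without their roles. Per the file headers, the authors deposited TPM, FPKM and coverage (mean read depth per base) for each gene, and TPM was the value used here. TPM was added over lines with 1 gene name, 15285 genes that reached 1 TPM in 2 or more of the 16 libraries were kept, and log2(TPM + 1) was fitted with limma 3.58.1 (R 4.3.3) on 8 group means with a trended prior. Fold changes on this scale understate changes of low genes. P-values are two-sided and were adjusted by the Benjamini-Hochberg method over all tested genes in each of 16 comparisons, and a gene was called at an adjusted p under 0.05. Intervals are 95% intervals of single comparisons. The fit was tested on simulated data.

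Median-of-ratios scaling (size factors 0.824 to 1.39), FPKM, other filters and pseudocounts, a same-time fit and leaving out libraries were the alternatives. Scaled coverage and leaving out both 7F8 libraries of 48 h were added after seeing the data. The enzymes and gene lists were chosen with earlier results of these data known. Named genes are the 9 enzymes, listed pathway genes that passed a test or whose role is stated, and the 6 genes most alike in their 8 group means.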

Additional observations from a re-analysis of the deposited data

How the results depend on the processing

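Across 30 alternative settings, 935 of 954 log2 fold changes of the 9 enzymes against DMSO kept their direction, and 5G6 and 6D7 gave 162 of 162 values above 0 at each time. Part of this was fixed in advance, since some settings alter only the spread or the set of tested genes and leave fold changes as they were. These are no filter, no trended prior, the same-time fit, the replicate block, and leaving out both 7F8 libraries of 48 h on TPM. Their values are in these totals and add nothing on direction. The 19 that changed sign were all of 7F8, passed no test in either fit, and their cause was not tested. Among them, CYP51A1 with 7F8 at 4 h was 0.077 with median-of-ratios scaling, with or without the replicate block, and 0.079 with this scaling and without both 7F8 libraries of 48 h. Leaving out 1 library gave ranges with 7F8 at 4 h of -0.13 to 0.47 for FDFT1, -0.19 to 0.41 for SQLE, -0.24 to 0.18 for CYP51A1, -0.58 to 0.23 for MSMO1, -0.30 to 0.078 for EBP and -0.33 to 0.51 for DHCR7. With 7F8 at 48 h they were -0.21 to 1.33 for NSDHL, -0.13 to 1.602 for HSD17B7 and -0.48 to 0.94 for EBP. Counts of called enzymes were less stable, and 191 of 212 from alternatives other than leaving out 1 library stayed within 1.5 times the reported count. With 5G6 at 4 h, 4 were called in place of 0 without both 7F8 libraries of 48 h, as were 2 in place of 0 for 5G6 against 7F8 at 4 h. The other counts of 0 that could be fitted without both stayed at 0. With 5G6 at 48 h, 5 in place of 8 were called with no filter (231 of 26182 genes called higher) and 0 with the libraries of 48 h alone (7 of 14981). For 6D7 at 48 h, 4 in place of 9 were called with median-of-ratios scaling (466 of 15285 genes) and 5 without TRNC and TRNY (390 of 15832). The count was 5 without mitochondrial genes (381 of 15958) and 3 with the libraries of 48 h alone (381 of 14981). With 7F8 at 48 h, 0 in place of 1 were called with no filter (249 of 26182 genes) and 0 with the libraries of 48 h alone (67 of 14981). For 6D7 against 7F8 at 48 h, in place of 2, no filter gave 1 (2165 of 26182 genes). The count was 0 with FPKM (55 of 13685), median-of-ratios scaling (51 of 15285) and the libraries of 48 h alone (106 of 14981). It was also 0 with TPM without TRNC and TRNY (68 of 15832), TPM without mitochondrial genes (62 of 15958) and scaled coverage. Without 1 library, the counts ranged from 0 to 2 for 5G6 at 48 h, 1 to 8 for 6D7, 0 to 7 for 7F8, 0 to 4 for 5G6 against 7F8 and 0 to 6 for 6D7 against 7F8, and were 0 in the other 11 comparisons. The replicate numbers were not shown to pair the libraries: with 2 numbers a group, deviations of same-numbered libraries correlated at 0.41 to 0.63 between a compound and DMSO of the same hour and over 0.1 in 25 of 28 pairs of groups. Between compounds of the same hour they correlated at 0.38 to 0.58. The pairs of groups at or below 0.1 joined different hours (0.055 to 0.092). Deviations were thus shared within an hour, and the fit behind the reported counts does not model this. At 48 h the replicate block gave 9 called enzymes with 5G6 (704 of 15285 genes called higher), 9 with 6D7 (3210) and 1 with 7F8 (685). It gave 2 for 5G6 against 7F8 (197 of 15285 genes) and 6 for 6D7 against 7F8 (5455). With the block NSDHL with 5G6 at 48 h passed (adjusted p = 0.0147 by limma). The replicate block with median-of-ratios scaling gave 9 with 5G6 at 48 h (852 of 15285 genes), 9 with 6D7 (1067) and 3 with 7F8 (1225). For 6D7 against 7F8 it gave 0 (160 genes). With 2 libraries a group, 8 of 9 enzymes with 5G6 at 4 h had an unadjusted p under 0.05 and none an adjusted one.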
